A study of Ursus arctos with 12 samples.

Results

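The genes of glycolysis and glycogen metabolism were examined in the vastus lateralis, a thigh muscle, of 6 free-ranging brown bears (Ursus arctos) aged 2 to 3 years. Each bear gave a biopsy in winter, during hibernation in February, and another in summer of the same year, during the active period in June, so the 12 libraries form 6 summer and 6 winter samples of the same animals. The labels name no treatment. Each library is the polyadenylated RNA of a whole biopsy, in which fewer cells of a type and less RNA per cell cannot be told apart. The question was how the mRNA levels of the enzymes that store and burn sugar differed between the seasons.

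The members were 44 genes given by symbol, and a row of the counts had to carry the symbol and at least 30 reads summed over the 12 libraries. This gave 43 members among the 17290 genes tested and the 30249 listed. LDHA, the remaining gene, is listed in the counts under LOC113265126, which RefSeq names LDHA in the assembly UrsArc2.0. Its values are given from that row and it stays out of the counts of members.

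In glycolysis, glucose is phosphorylated by hexokinase, committed by phosphofructokinase and split into trioses, which are turned into pyruvate and, with little oxygen or in rapid work, lactate. Muscle also keeps glucose as glycogen, a branched chain built by glycogen synthase and branching enzyme and cut by glycogen phosphorylase. Phosphorylase kinase switches phosphorylase on, while protein phosphatase 1, brought to the granule by targeting subunits, switches phosphorylase off and synthase on. In skeletal muscle these pathways serve brief, intense contraction, and fast fibres carry more of many, though not all, of their enzymes than slow fibres.

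Between 20191068 and 27283155 reads per library were counted on genes in summer and between 16742406 and 32140160 in winter. Levels are given as log2 CPM, the log2 of counts scaled by TMM to a common library size of 1e6 with a prior count of 2. A gene was called at a p below 0.05 in the quasi-likelihood test of edgeR, adjusted by Benjamini-Hochberg over all genes tested. This is the adjusted p given throughout unless another tool, test or setting is named. Season was the sole term, so the pairing of libraries by bear was not part of this test. The markers of muscle fibre were high, as the label of the tissue has it, with 3 of 7 lower in winter (ACTA1, MB and TCAP) and 1 higher (TTN). They summed to between 100034 and 167764 CPM in summer and between 106019 and 141131 CPM in winter. Of the fast-fibre markers found in the counts, 3 of 9 were lower in winter (ACTN3, ATP2A1 and MYBPC2), and their sum ran from 48326 to 78542 CPM in summer and from 45012 to 59847 CPM in winter. Among slow-fibre markers 1 of 9 was lower (ATP2A2), with sums of 15515 to 32056 and 16960 to 27204 CPM. Fibroblast markers were lower in 5 of 7, at 4224 to 11398 CPM in summer and 281 to 1697 CPM in winter, and endothelial markers in 4 of 6, at 588 to 921 and 396 to 460 CPM, with 1 higher. Macrophage markers were lower in 3 of 6 and those of smooth muscle and pericytes in 2 of 5, while 2 of 6 adipocyte markers were lower and 1 was higher. No marker of these lists found in the counts was at 0 reads in all libraries, and of the red blood cell markers ALAS2, at 1 to 38 reads, was the one tested and was not called. When the bear entered as a replicate block, MYH7 (adjusted p = 0.0284), DCN (0.0104) and PDGFRB (0.0425) were also lower and MYOZ2 higher (0.027), while LEP, the adipocyte marker that was higher, lost its call (0.0629). The part of fibre type and of other cells in the values below was not tested.

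More of the members were called lower in winter than higher. Of the 43 members, 27 were called (62.8%), against 39.5% of all genes tested. Lower in winter were 23 members (53.5%), where 19.9% of all genes were, and higher were 4 (9.3%), where 19.6% of all genes were. The median log2 fold change of the members, winter over summer, was −0.42, and that of all genes −0.0021. Single bears had medians over the members between −0.56 and −0.20, below 0 in 6 of 6. Under the stricter limits of the study, an adjusted p below 0.01 with a fold change above 1.3 or below 0.77, 3 members were higher and 16 lower, together 44.2% against 24% of all genes. The seasons did not overlap in log2 CPM for 14 members (32.6%), against 17.3% of all genes. With 1 bear left out at a time, 19 to 23 members were lower and 3 to 4 higher. The members held 5.90 to 9.43% of a library's reads in summer and 6.08 to 8.69% in winter, and this share, in which GAPDH and ALDOA weigh most, was lower in winter in 4 of 6 bears.

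**Figure D1:**
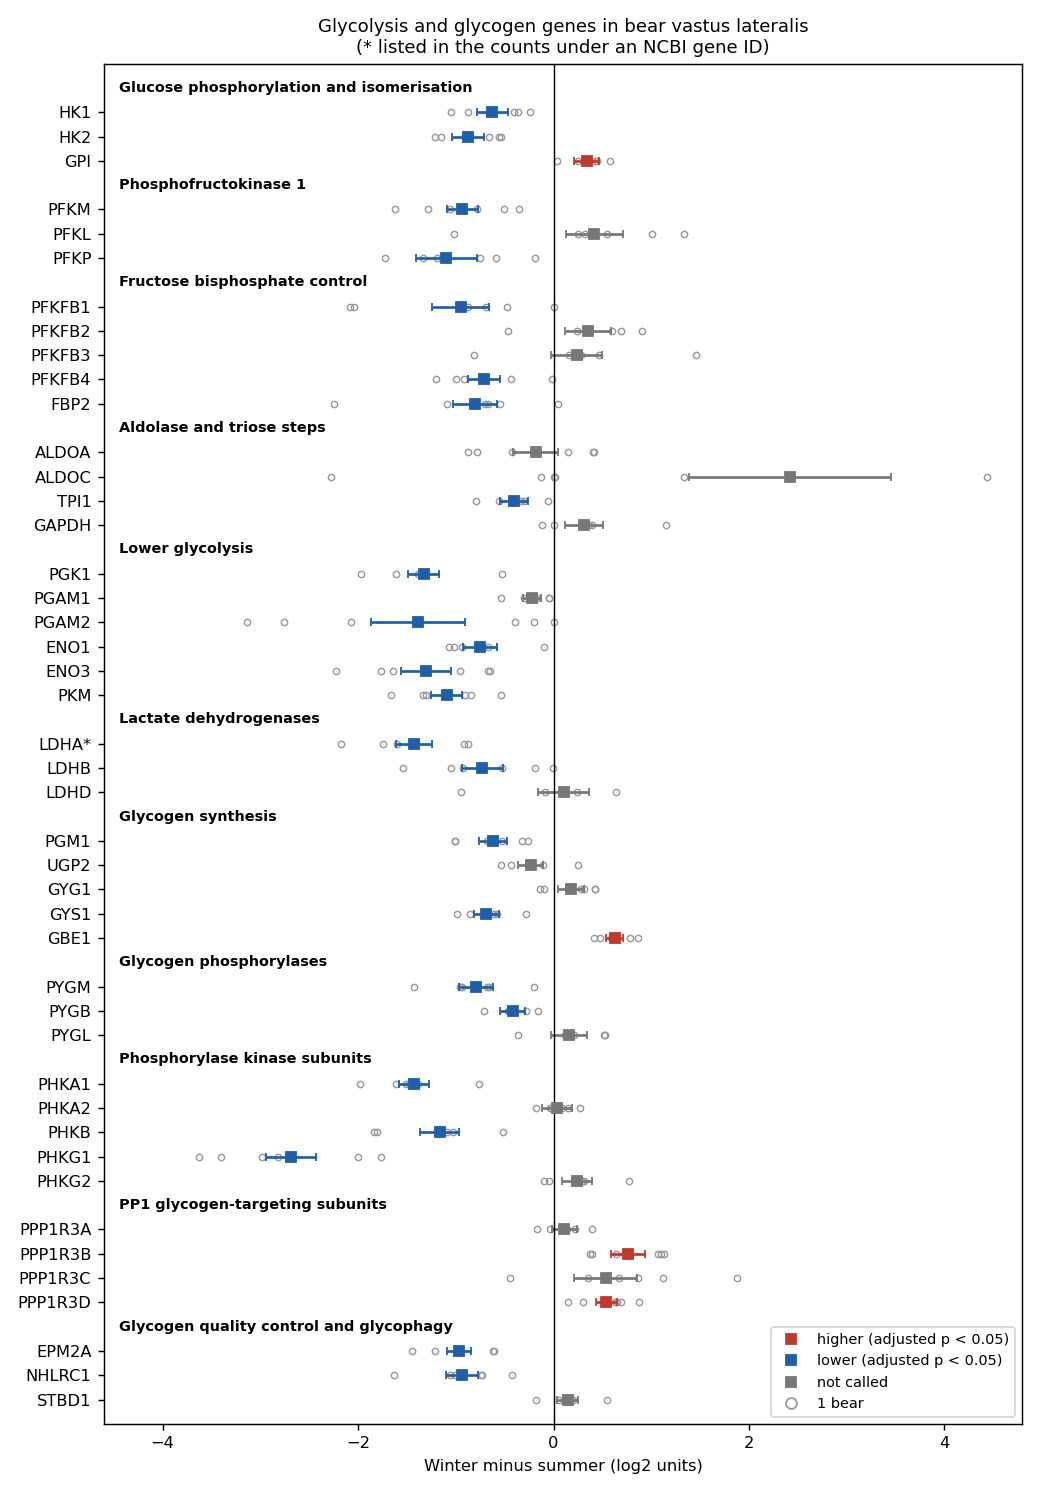
Winter minus summer, in log2 units, for the 43 members and LDHA (marked by an asterisk), grouped by role; squares are the fitted log2 fold changes with their standard errors, coloured by call, and open circles are the 6 bears. Most squares lie left of 0, PHKG1 farthest at −2.69, while GPI, GBE1, PPP1R3B and PPP1R3D are called on the right.

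The entry into glycolysis was lower in winter at hexokinase and slightly higher at the isomerase that follows. HK2, the insulin-responsive hexokinase of muscle, ranged from 6.43 to 7.51 log2 CPM in summer (median 6.94) and from 5.87 to 6.30 in winter (median 6.02). Every winter library was thus below every summer library. Its log2 fold change was −0.87 (SE, the standard error, 0.16; adjusted p = 0.000976), a fold change of 0.55. HK1, the form found in most tissues, was lower at −0.63 (SE 0.16, adjusted p = 0.00623), on 188 to 615 reads a library. GPI, which turns glucose phosphate into fructose phosphate, went the other way at 0.34 (SE 0.13, adjusted p = 0.0462) with the winter library above the summer one in 6 of 6 bears. That call was lost with library totals (adjusted p = 0.136), without the filter (0.0796), and without bear 1305, 1316, 1317, 1511 or 1512 (0.0633 to 0.114).

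Phosphofructokinase, the committed step, was lower in its muscle form. PFKM ranged from 10.80 to 11.43 log2 CPM in summer (median 11.19) and from 9.80 to 10.51 in winter (median 10.27), with no overlap of the seasons. Winter was at a log2 fold change of −0.93 against summer (SE 0.16, adjusted p = 0.000504), which is a fold change of 0.52. The platelet form, PFKP, was counted at 50 to 322 reads and ranged from 1.74 to 3.69 log2 CPM in summer (median 2.45) and from 1.34 to 2.36 in winter (median 1.53), lower in 6 of 6 bears while the seasons overlapped. It was called at −1.10 (SE 0.31, adjusted p = 0.013), but not without bear 1305 (adjusted p = 0.0589). The liver form, PFKL, stood at 0.42 (SE 0.29, adjusted p = 0.272), short of a call.

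The PFKFB enzymes make and remove the sugar bisphosphate that activates phosphofructokinase, and 2 of the 4 were lower. PFKFB1 ranged from 6.82 to 7.83 log2 CPM in summer (median 7.13) and from 5.04 to 6.95 in winter (median 6.40). It was lower in 5 of 6 bears, the levels of bear 1509 being 6.90 in both seasons. Its log2 fold change was −0.95 (SE 0.29, adjusted p = 0.0188), and without bear 1316 the adjusted p was 0.0841. PFKFB4, with 96 to 289 reads per library, was lower at −0.71 (adjusted p = 0.00306). PFKFB2, the heart form, and PFKFB3, the inducible form, were higher in 5 of 6 bears each and were not called, at 0.35 (adjusted p = 0.254) and 0.24 (adjusted p = 0.496). In DESeq2, when the bear entered as a replicate block, PFKFB2 was called higher (adjusted p = 0.0444). FBP2, the fructose bisphosphatase of muscle that runs the step backwards, was lower at −0.80 (SE 0.23, adjusted p = 0.0119) in 5 of 6 bears, with bear 1511 going from 7.60 to 7.65 log2 CPM.

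In the middle of the pathway, aldolase and GAPDH were not called. ALDOA, the muscle aldolase, ranged from 13.07 to 14.32 log2 CPM in summer (median 13.86) and from 12.98 to 14.28 in winter (median 13.55), and was lower in 3 of 6 bears. The log2 fold change of −0.18 (SE 0.23, adjusted p = 0.556) was smaller than the spread between bears. GAPDH, which oxidises the triose phosphate, ranged from 14.24 to 15.46 log2 CPM in summer (median 15.15) and from 15.05 to 15.56 in winter (median 15.43). It was higher in 5 of 6 bears, at 0.31 (SE 0.19, adjusted p = 0.215), and a summer library, that of bear 1317, stood below the others. TPI1, which interconverts the triose phosphates, ranged from 10.52 to 11.09 log2 CPM in summer (median 10.72) and from 9.96 to 10.62 in winter (median 10.32). In 6 of 6 bears it was lower, by −0.41 over all (SE 0.14, adjusted p = 0.0331), and the call was lost without bear 1316, 1317, 1509 or 1511 (adjusted p from 0.0513 to 0.119).

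ALDOC, the aldolase of brain, had the fewest reads of all members, 272 over the 12 libraries. In summer it lay between −2.89 and −0.53 log2 CPM (median −1.16) and in winter between −2.80 and 3.39 (median −1.22). The high value was the winter library of bear 1509, with 188 reads, where the other libraries had 1 to 14. Its log2 fold change of 2.42 (SE 1.03, adjusted p = 0.0766) turned to −0.33 (adjusted p = 0.656) without that bear.

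In the lower part of glycolysis, from phosphoglycerate kinase to pyruvate kinase, 5 of the 6 members were lower. None was higher, whether by the adjusted p of edgeR (0), its raw p at the 0.05 level (0) or DESeq2 (0). PGK1, which makes the first ATP of the pathway, ranged from 9.86 to 10.26 log2 CPM in summer (median 10.20) and from 8.22 to 9.34 in winter (median 8.84), with no overlap. It fell by 1.33 on the log2 scale (SE 0.16, adjusted p = 4.16e-05). ENO3, the muscle enolase, ranged from 12.04 to 13.43 log2 CPM in summer (median 12.83) and from 11.03 to 12.33 in winter (median 11.31), lower in 6 of 6 bears with some overlap of the seasons, at −1.30 (SE 0.25, adjusted p = 0.00119). PKM, pyruvate kinase, ranged from 10.39 to 11.08 in summer (median 10.84) and from 9.42 to 10.17 in winter (median 9.60), again without overlap, at −1.09 (SE 0.16, adjusted p = 0.000158). ENO1, the enolase of most tissues, was lower at −0.75 (SE 0.17, adjusted p = 0.00387).

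The phosphoglycerate mutases differed in how steady they were. PGAM2, the muscle form, ranged from 8.71 to 11.33 log2 CPM in summer (median 10.61) and from 7.45 to 10.41 in winter (median 8.64). Bears 1305, 1316 and 1509 dropped by over 2 log2 units, whereas bear 1317 stood at 8.71 in both seasons. Over all bears this gave −1.38 (SE 0.48, adjusted p = 0.0334). The call was lost in DESeq2 when the bear entered as a replicate block (adjusted p = 0.0646), and in edgeR without bear 1305 (0.101), 1316 (0.137) or 1509 (0.0795). PGAM1, found in most tissues, was lower in 6 of 6 bears by a small amount, at −0.22 (SE 0.09, adjusted p = 0.0657), short of a call. DESeq2 did call it (adjusted p = 0.0499), as did edgeR with library totals (0.0165).

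Lactate dehydrogenase, which links pyruvate and lactate, was lower in both its main subunits. LDHA, the muscle subunit, ranged from 11.71 to 12.46 log2 CPM in summer (median 12.28) and from 10.29 to 11.36 in winter (median 10.76), with no overlap of the seasons. It fell by 1.43 on the log2 scale (SE 0.19, adjusted p = 8.33e-05), a fold change of 0.37. LDHB, the heart subunit, ranged from 6.78 to 8.01 log2 CPM in summer (median 7.34) and from 6.12 to 7.0 in winter (median 6.75). The seasons overlapped, and bear 1511 stood at 7.0 in both. It was lower at −0.73 (SE 0.21, adjusted p = 0.0132), though not without bear 1317 (adjusted p = 0.0575). LDHD, a mitochondrial enzyme of D-lactate, was near its summer level at 0.10 (SE 0.26, adjusted p = 0.777).

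**Figure D2:**
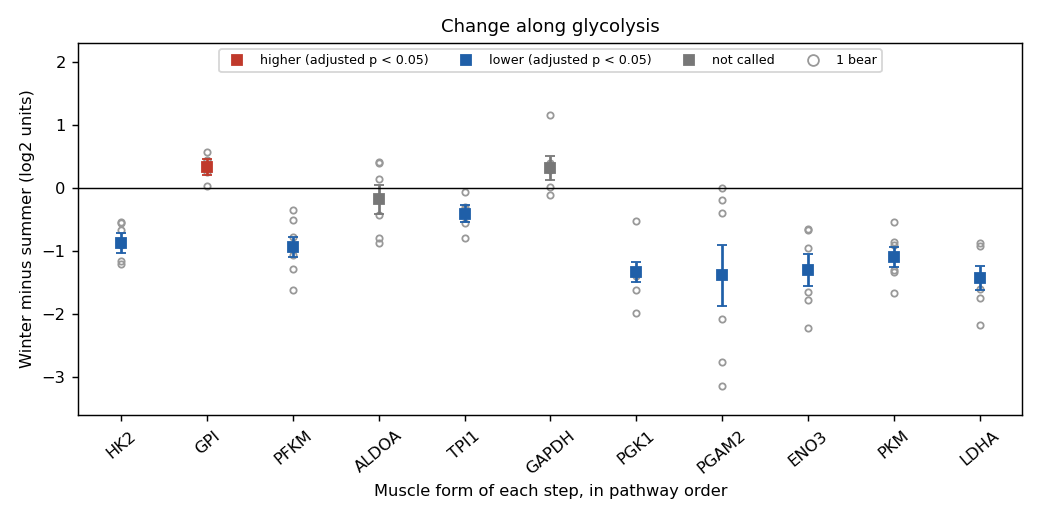
Winter minus summer, in log2 units, of the muscle form of each glycolytic step in pathway order; squares are fitted log2 fold changes with standard errors and open circles the 6 bears. ALDOA (−0.18) and GAPDH (0.31) are not called, GPI lies at 0.34, and the steps from PGK1 to LDHA between −1.43 and −1.09.

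Within a library, the reads of glycolytic steps shifted against each other, in pairs that were picked after the fit had been seen and are given without a test. The log2 ratio of ENO3 to GAPDH reads went from −2.24 ± 0.17 in summer to −3.91 ± 0.36 in winter (SD, n = 6 bears), with differences of −2.11 to −1.06 in single bears. For PGK1 over GAPDH the ratio moved from −4.88 ± 0.43 to −6.59 ± 0.48, lower in 6 of 6 bears. PFKM over ALDOA was less even, at −2.63 ± 0.55 and −3.38 ± 0.49, with an overlap of the seasons and differences from −2.04 to 0.09. Such ratios do not depend on how the libraries were scaled.

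Glycogen synthesis was split, with synthase lower and branching enzyme higher. GYS1, the muscle glycogen synthase, ranged from 7.94 to 8.68 log2 CPM in summer (median 8.22) and from 7.27 to 7.70 in winter (median 7.63). No winter library reached the summer range. The drop was −0.69 in log2 (SE 0.13, adjusted p = 0.00106), a fold change of 0.62. GBE1, the branching enzyme, rose from between 5.16 and 5.54 log2 CPM (median 5.34) to between 5.85 and 6.13 (median 5.98), also without overlap. The rise was 0.63 in log2 (SE 0.09, adjusted p = 0.000156), and the 6 bears spread from 0.42 to 0.86.

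The log2 ratio of GBE1 to GYS1 reads went from −2.89 ± 0.24 in summer to −1.59 ± 0.16 in winter (SD, n = 6 bears). The difference lay between 1.07 and 1.47 in the 6 bears; the pair was picked after the fit had been seen and was not tested. PGM1, phosphoglucomutase, which stands between glycogen and glycolysis, was lower at −0.62 (SE 0.14, adjusted p = 0.00345). UGP2, which makes the activated glucose donor, and GYG1, glycogenin, the protein primer of the granule, were not called, at −0.24 (adjusted p = 0.166) and 0.18 (adjusted p = 0.303).

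Glycogen phosphorylase was lower in its muscle form. PYGM ranged from 12.27 to 12.91 log2 CPM in summer (median 12.31) and from 11.37 to 12.26 in winter (median 11.55). The highest winter value, 12.26 in bear 1511, lay just under the lowest summer value. Over the 6 bears PYGM was lower at −0.79 (SE 0.18, adjusted p = 0.0032), a fold change of 0.58, and single bears lay from −1.43 to −0.20. PYGB, the brain form, with 223 to 560 reads, was lower at −0.42 (SE 0.13, adjusted p = 0.0191), but not without bear 1305 (adjusted p = 0.0515) or bear 1316 (0.0735). PYGL, the liver form, stood at 0.16 (SE 0.18, adjusted p = 0.513).

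The subunits of phosphorylase kinase held the strongest fall of all members. PHKG1, the catalytic subunit of muscle, ranged from 6.95 to 7.88 log2 CPM in summer (median 7.49) and from 3.90 to 5.70 in winter (median 4.64). In reads, bear 1305 had 6484 in summer and 544 in winter, and bear 1317 had 4243 and 264. Between the seasons this was a log2 fold change of −2.69 (SE 0.26, adjusted p = 1.04e-05), a fold change of 0.16. Single bears lay from −3.62 to −1.76.

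PHKA1, the regulatory alpha subunit of muscle, ranged from 8.93 to 9.35 log2 CPM in summer (median 9.20) and from 7.28 to 8.30 in winter (median 7.65). It fell by 1.43 on the log2 scale (SE 0.15, adjusted p = 2.22e-05). PHKB, the beta subunit shared by muscle and liver, fell by 1.16 on the log2 scale (SE 0.20, adjusted p = 0.000523). For these 3 subunits no winter library reached the summer range, and bear 1509 had the highest winter level of each. The liver forms did not pass the test. PHKA2, with 129 to 247 reads, stood at 0.03 (SE 0.15, adjusted p = 0.881), and PHKG2, with 124 to 290 reads, at 0.24 (SE 0.16, adjusted p = 0.239).

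**Figure D3:**
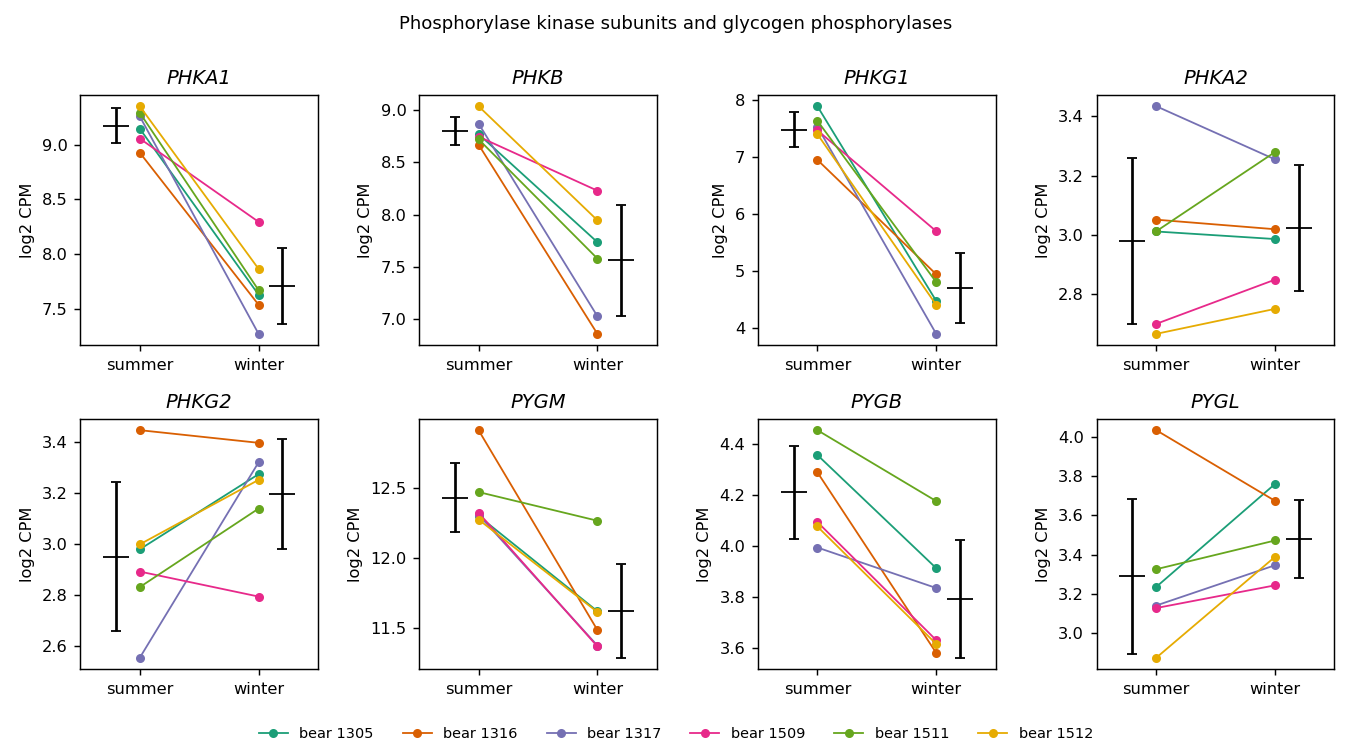
Levels in log2 CPM of the phosphorylase kinase subunits and glycogen phosphorylases in summer and winter; each coloured line is a bear, black bars are the mean and SD of the 6 bears, and the axes differ between panels. The lines of PHKA1, PHKB, PHKG1, PYGM and PYGB go down in 6 of 6 bears, and those of PHKA2, PHKG2 and PYGL go up in some bears and down in others.

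Among the members, 2 of the 4 targeting subunits of protein phosphatase 1 were higher, where 19.6% of all genes were, and 2 were not called. None was lower by the adjusted p of edgeR (0), its raw p at the 0.05 level (0) or DESeq2 (0). PPP1R3B, first known from liver, ranged from 6.92 to 7.89 log2 CPM in summer (median 7.15) and from 7.66 to 8.37 in winter (median 8.08). It was higher in 6 of 6 bears at 0.77 (SE 0.17, adjusted p = 0.00329), a fold change of 1.70. The seasons overlapped through the summer library of bear 1512, at 7.89. PPP1R3D was higher at 0.54 (SE 0.11, adjusted p = 0.00159), with no overlap.

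PPP1R3C, also called protein targeting to glycogen, was at 0.53 (SE 0.33, adjusted p = 0.209) and not called in the fit without the bear as a term. With the bear as a replicate block it was called, at 0.74 (adjusted p = 0.0313). It was higher in 5 of 6 bears, from −0.45 in bear 1305 to 1.88 in bear 1317. PPP1R3A, the muscle form, ranged from 7.89 to 8.45 log2 CPM in summer (median 8.05) and from 8.04 to 8.58 in winter (median 8.11). The difference was 0.11 (SE 0.13, adjusted p = 0.513), within the spread between bears.

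Of the 3 genes of glycogen quality control, 2 were lower. EPM2A encodes laforin, a glycogen phosphatase, and NHLRC1 encodes malin, a ubiquitin ligase that acts with it. Loss of either causes Lafora disease, in which abnormal glycogen builds up. EPM2A ranged from 6.07 to 6.58 log2 CPM in summer (median 6.21) and from 5.10 to 5.61 in winter (median 5.19), and its log2 fold change was −0.97 (SE 0.12, adjusted p = 6.8e-05). NHLRC1, with 45 to 164 reads, was lower at −0.93 (SE 0.16, adjusted p = 0.000595). For both, every winter library lay below every summer library. STBD1, a glycogen-binding protein linked to the delivery of glycogen to lysosomes, was not called at 0.15 (SE 0.11, adjusted p = 0.313).

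**Figure D4:**
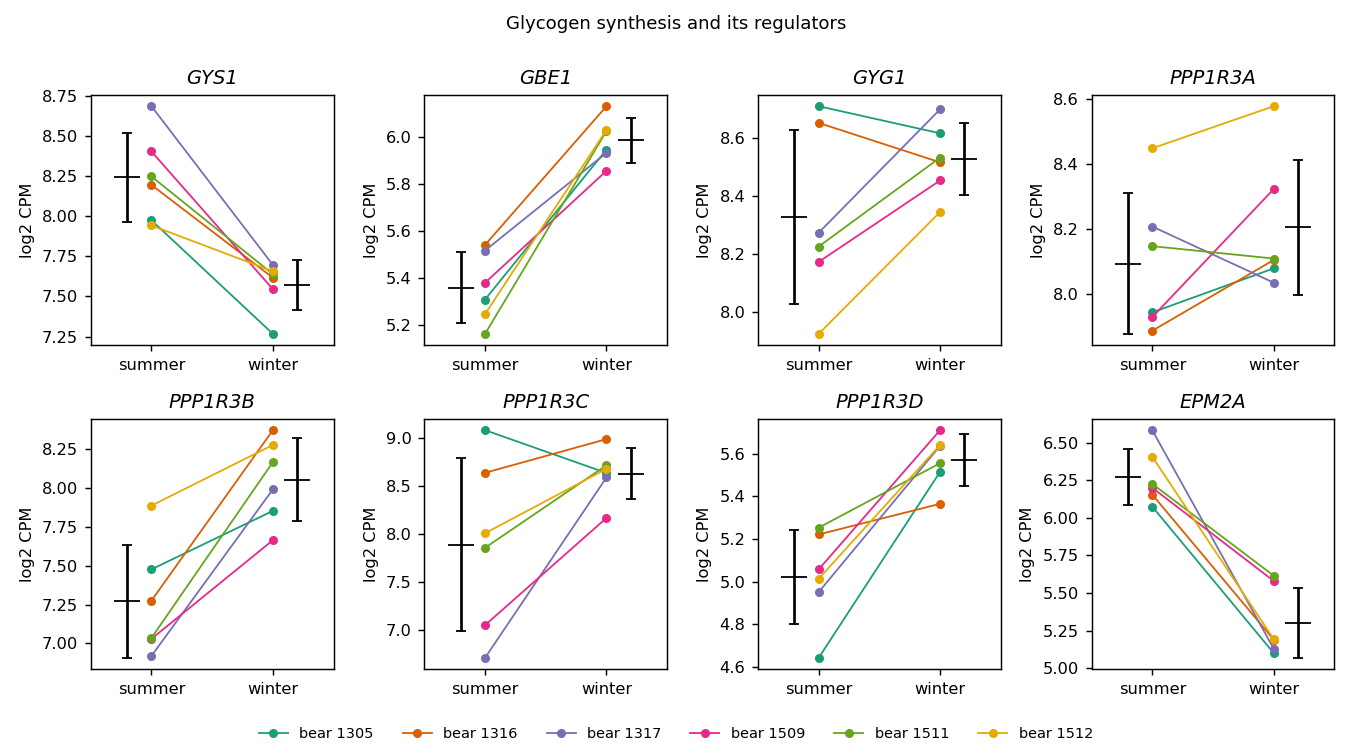
Levels in log2 CPM of GYS1, GBE1, GYG1, the 4 targeting subunits of protein phosphatase 1 and EPM2A in summer and winter; each coloured line is a bear, black bars are the mean and SD of the 6 bears, and the axes differ between panels. GYS1 and EPM2A go down and GBE1, PPP1R3B and PPP1R3D go up in 6 of 6 bears.

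Read ratios within a library were compared for 12 pairs, of which 11 set 2 forms of an enzyme against each other. The difference between seasons was tested by an exact two-sided permutation test that flips the sign of each bear's difference, with Benjamini-Hochberg adjustment over the 12 pairs. The smallest p that 6 bears can give is 0.03125. The log2 ratio of PHKG1 to PHKG2 dropped from 4.54 ± 0.55 to 1.52 ± 0.79 (SD, n = 6 bears), a difference of −3.02. For PHKA1 over PHKA2 the ratio moved from 6.21 ± 0.32 to 4.71 ± 0.52, a difference of −1.50, and for PYGM over PYGL from 9.15 ± 0.17 to 8.15 ± 0.36, a difference of −1.0. Each of these 3 was lower in 6 of 6 bears and reached that smallest exact p (adjusted p = 0.0938), so none passed the correction. With 12 pairs, that p can pass only if most of the pairs reach it together. No pair could thus be called by its own shift, however large, and the missing calls decide nothing about single pairs. An unpaired exact permutation of the season labels, which ignores the pairing by bear, gave each of these 3 pairs an adjusted p of 0.00866. Each had the smallest p which that test can give, 0.00216. In that unpaired test 5 pairs were lower, among them PFKM over PFKL and PYGM over PYGB (adjusted p = 0.0364 each). Both were lower in 5 of 6 bears, with an exact paired p of 0.0625 (adjusted p = 0.0938). Single bears ran from −2.98 to 0.25 for PFKM over PFKL and from −0.78 to 0.07 for PYGM over PYGB.

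The remaining pairs also differed in direction between bears. PGAM2 over PGAM1, ENO3 over ENO1 and LDHA over LDHB were lower in 5 of 6 bears, by −1.21, −0.55 and −0.75 in the mean (exact p = 0.0625, adjusted p = 0.0938 for each). For HK2 over HK1 the difference was −0.23 (exact p = 0.188, adjusted p = 0.25) and for PFKM over PFKP 0.05 (exact p = 0.906, adjusted p = 0.906). GYS1 over PYGM, synthase against phosphorylase, differed by 0.14 ± 0.43 (SD of the differences, n = 6 bears), higher in 3 of 6 bears (exact p = 0.531, adjusted p = 0.638). ALDOA over ALDOC ranged from −5.59 to 3.85 in single bears, on the few reads of ALDOC (exact p = 0.688, adjusted p = 0.75).

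**Figure D5:**
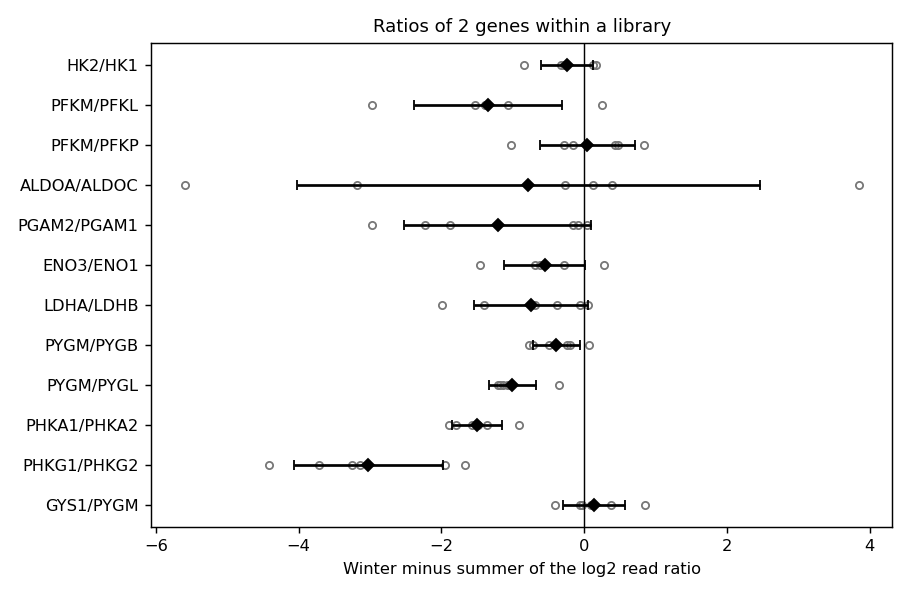
Winter minus summer of the log2 read ratio of 2 genes within a library; diamonds are means with the SD of the 6 differences and open circles the bears. PHKG1/PHKG2, PHKA1/PHKA2 and PYGM/PYGL lie below 0 in 6 of 6 bears, and GYS1/PYGM and PFKM/PFKP spread around 0.

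A further 47 genes of glycolysis, gluconeogenesis and glycogen handling were taken by symbol to show the rest of the pathway. Of these, 37 were tested, 8 had under 30 reads and 2 are not among the rows. In winter 6 were higher and 8 lower, together 37.8% against the 39.5% of all genes, with a median log2 fold change of −0.20. BPGM, which makes bisphosphoglycerate, was lower at −1.17 (adjusted p = 0.00127), and PGM3, a mutase of amino sugar synthesis, at −1.19 (adjusted p = 0.000174).

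Of the further genes listed under gluconeogenesis, those that were called were lower. G6PC3, the glucose phosphatase found in most tissues, with 34 to 174 reads, was at −1.75 (SE 0.21, adjusted p = 3.98e-05), and SLC37A4, the glucose phosphate transporter that feeds it, at −0.88 (SE 0.10, adjusted p = 2.97e-05). PC, pyruvate carboxylase, was at −1.50 (SE 0.37, adjusted p = 0.00592), with 3393 reads in the summer library of bear 1316 and 770 to 1076 in the other summer libraries. Without that bear it was still called, at −0.91 (adjusted p = 0.00199). PCK1, an enzyme of gluconeogenesis that fat cells also use, was called lower at −2.98 (SE 1.09, adjusted p = 0.0412) but was lower in 3 of 6 bears, and stood at −1.08 without bear 1316 and −4.05 without bear 1512. It had 220 reads in the summer library of bear 1316 and 0 to 38 in the other 11 libraries. Adipocyte markers summed to 1990 CPM in that library and to at most 932 CPM in the other summer libraries, and their part in the values of PCK1 and PC was not tested. The call did not hold when the bear entered as a replicate block (adjusted p = 0.117), nor in limma voom (0.251) or without bear 1305, 1316 or 1511 (0.0647 to 0.347).

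Among the genes that were higher, PPP1R2, an inhibitor of protein phosphatase 1, was at 0.97 (SE 0.14, adjusted p = 0.000178) and PGM2L1, a mutase that makes glucose bisphosphate, at 0.87 (SE 0.28, adjusted p = 0.0229), both in 6 of 6 bears. The call of PGM2L1 was lost without bear 1316 (adjusted p = 0.0584). ENO2, the enolase of neurons, was at 1.27 (SE 0.42, adjusted p = 0.027) with 35 to 321 reads, higher in 5 of 6 bears, and lost its call in limma voom (adjusted p = 0.0621) and with the omission of bear 1305, 1317 or 1509 (0.0608 to 0.0792). PPP1R3E, picked out after its value was seen because it is another targeting subunit of protein phosphatase 1, was higher in 6 of 6 bears at 0.87 (SE 0.13, adjusted p = 0.000178). The targeting subunits PPP1R3F and PPP1R3G were not called, at −0.27 (adjusted p = 0.158) and 0.04 (adjusted p = 0.889). PPP1R3F was lower in 6 of 6 bears. The catalytic subunits PPP1CA, PPP1CB and PPP1CC were not called (log2 fold changes 0.26, −0.08 and −0.20). GSK3A and GSK3B, kinases that switch synthase off, stood at 0.25 (adjusted p = 0.082) and −0.02 (adjusted p = 0.914).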

How the data were processed

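Polyadenylated RNA of 12 muscle biopsies was sequenced on stranded libraries. By the paper's methods and the labels, the authors aligned single reads to ASM358476v1 with TopHat2 2.1.1, kept reads on the strand opposite to the gene in featureCounts 1.6.2 and deposited whole-number read counts per gene without scaling or filter. How reads with several matches were treated is not given in the sources used here, so any gene with near-identical copies is uncertain in level. Such copies were not looked for here, and GAPDH, PGK1, PGAM1, ENO1 and LDHA may have them.

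Genes under 30 reads over the 12 libraries were removed. Winter was compared with summer in R 4.3.3 with edgeR 4.0.16 (TMM, glmQLFit, glmQLFTest, season as the sole term), and with DESeq2 1.42.0 and limma 3.58.1 (voom) as alternatives. The fits were run first on simulated counts without a bear effect, which cannot check how the pairing was treated. The members and lists were chosen with earlier results of these data known, and so were the rules for which genes get full values: the muscle forms, the called member with the largest change in each role, and ALDOC for its low reads. Of the other pathway genes, the 10 largest called changes were taken, and some items are not reported here.

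Libraries with the same number come from the same bear. The correlation of their deviations from the mean of the season was 0.0903 to 0.344. Sequencing lanes are not assigned in the labels, so a lane effect was not tested. No per-gene lengths were used here, so levels are not compared between genes. Counting error and biological spread are both in the p-values. No library was left out.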

Additional observations from a re-analysis of the deposited data

Results flagged for a closer look

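For LDHA and the members, 88 sets of 6 libraries were checked for a library far from the rest, by the gap to its neighbour over the range of the season. Chance flags about 1 in 20 such sets, and 9 were found. ALDOC lay at 3.39 log2 CPM in the winter library of bear 1509, where the next was −1.16, and at −2.89 in the summer library of bear 1316. PFKP was high in the winter library of bear 1511 (2.36 log2 CPM, next 1.62), as was PYGM (12.26, next 11.62), whose summer library of bear 1316 also stood high (12.91, next 12.47). PFKFB4 was high (3.15, next 2.62) and GYS1 low (7.27, next 7.54) in the winter library of bear 1305. In summer, GAPDH was low in bear 1317 (14.24, next 15.04) and PGK1 low in bear 1509 (9.86, next 10.18). Without the bear in question, each call or missing call of these genes stayed as it was. The direction of ALDOC turned without bear 1509.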

How the results depend on the processing

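Over 14 alternatives (a replicate block for the bear in edgeR and in DESeq2, DESeq2 alone, RLE, library totals, no filter, filterByExpr, limma voom and each bear left out), 33 of the 43 members stayed on their side of the threshold and 40 kept their direction. The call was kept throughout by 20 of the 27 called members, and 7 lost it at least once; 3 that were not called passed at least once. With the bear as a replicate block 5 members were higher and 23 lower, and PPP1R3C was the member whose call changed in edgeR. Library totals moved the median of all genes to −0.08. By those totals PHKA2 was at −0.059, and in limma voom LDHD was at −0.0082, both turned in sign and neither called. Without 1 bear, ALDOC ranged from −0.33 to 2.89, LDHD from −0.093 to 0.26 and PHKA2 from −0.017 to 0.091. The ratio difference ranged from −0.11 to 0.26 for PFKM over PFKP, from −1.70 to 0.18 for ALDOA over ALDOC and from −0.0027 to 0.25 for GYS1 over PYGM. The unpaired permutation called 5 ratios lower, the paired one 0, and a pseudocount of 1 read 0; with 5 bears the paired test cannot go below p = 0.0625, so no count is given there. ALDOC could not be fitted under filterByExpr, which removed it.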
